A study of Macaca mulatta with 10 samples.

Results

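The genes described here encode the nuclear-encoded subunits of the mitochondrial respiratory chain and of ATP synthase, measured in 5 nuclei of the dorsal thalamus in the rhesus monkey, Macaca mulatta. They were chosen by gene symbol alone: NDUFA, NDUFB, NDUFC, NDUFS or NDUFV followed by a number, SDHA to SDHD, CYC1, the UQCR genes, the ATP5 genes, and COX4 to COX8 with any ending. The rule found 68 of the 11963 genes that the array measured with a probe set of 1 gene symbol. Of these, 66 were subunit genes or the ATP synthase inhibitor ATP5IF1, and 2 were not: NDUFB2-AS1 is by its name an antisense RNA and ATP5MC2P1 a pseudogene. The 66 genes fell into complex I with 27, complex II with 3, complex III with 7, complex IV with 13 and complex V, the ATP synthase, with 16 genes. Low values were not filtered out, so all 68 genes were tested, and 60 of them had a mean log2 intensity of at least 7 over the 10 arrays.

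The tissue was micro-punched from the brains of untreated adult monkeys, and its RNA was hybridised to a short-oligonucleotide array built for human transcripts. The labels name the nuclei Ventral Thalamus, Anterior Thalamus, Centre Median, Medial Thalamus and Pulvinar, with 2 arrays of each, numbered replicate 2 and replicate 1. No nucleus received a treatment, and the labels used here give neither the number of animals nor whether the punches of 1 nucleus came from separate animals. XIST and the Y-linked RPS4Y1 stood in opposite order on the 2 arrays of Ventral Thalamus, Anterior Thalamus and Medial Thalamus, and in the same order on those of Centre Median and Pulvinar. The p-values measure only the spread between these arrays, which for Centre Median and Pulvinar may be technical.

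The respiratory chain passes electrons from NADH (complex I) and succinate (complex II) through ubiquinone to complex III, cytochrome c and complex IV, which reduces oxygen. Complexes I, III and IV pump protons across the inner mitochondrial membrane, and complex V uses the gradient to make ATP. In brain, most of this ATP pays for ion pumping that restores membrane potentials after electrical activity, so the demand of a region depends on its neurons and their firing.

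All values are log2(intensity + 1) of RMA-processed intensities, 1 probe set per gene, and all differences are on that scale. A difference between a nucleus and the rest is the mean of its 2 arrays minus the mean of the other 4 nuclei. Because the array's probes were designed for human genes, a dim probe set was not read as absence of the rhesus transcript. The replicate numbers marked a large shift: replicate 2 and replicate 1 differed in 56.6% of all genes at an adjusted p under 0.05 (limma). Arrays of the same number deviated together, so results are given from fits without and with this number as a block. The thalamic markers TCF7L2 and SLC17A6, a transcription factor of thalamic neurons and the vesicular glutamate transporter of thalamic projection neurons, lay between 11.78 and 13.00 and between 10.33 and 11.54 on the 10 arrays. LHX2, another factor of thalamic development, was dim, between 6.03 and 6.64. In punches of whole tissue, fewer cells of a type and less RNA per cell cannot be told apart.

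Ventral Thalamus stood above the other nuclei in nearly all of the 68 genes. In 65 of them its mean was higher than that of the other 4 nuclei, with a median difference of 0.32 and a range of -0.19 to 0.55. Over all 11963 genes the median difference was -0.01, and 46.6% lay above 0. The summed intensity of the 66 genes was 65771 and 47507 in Ventral Thalamus (replicate 2 and replicate 1), against 47270 to 53802 in the other 4 nuclei of replicate 2 and 36702 to 43034 in those of replicate 1. In both sets the sum of Ventral Thalamus was the highest of the 5.

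No single gene passed the test for that comparison. Without the block, 0 of 68 genes were called at an adjusted p under 0.05 by limma, as were 0% of all genes, and 5 had an unadjusted p under 0.05, against 1.57% of all genes. With the block, 0 of 68 were called, against 0.527% of all genes, and the smallest adjusted p was 0.0513. At an unadjusted p under 0.05 the blocked limma fit found 40 of the 68 genes higher and 0 lower in Ventral Thalamus, against 8.22% of all genes higher.

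Within each set of arrays the direction was the same. Among replicate 2 arrays Ventral Thalamus exceeded the mean of the other 4 nuclei in 65 of 68 genes (median 0.34), and among replicate 1 arrays in 63 of 68 (median 0.25). These 63 genes were above it in both sets, against 28.9% of all genes. Ventral Thalamus was the highest of the 5 nuclei in both sets in 42 of the 68 genes, which is 61.8%, against 8.71% of all genes. On the deposited values, which still hold the shift between replicate numbers, both Ventral arrays lay above all 8 other arrays in 11 genes, against 1.96% of all genes. These 11 were ATP5F1B, ATP5F1C, ATP5MC3, ATP5MG, ATP5MJ, ATP5PB, COX5A, COX6B1, NDUFB2, SDHC and UQCRC1. After the shift was subtracted the count was 42, against 7.07% of all genes.

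**Figure D1:**
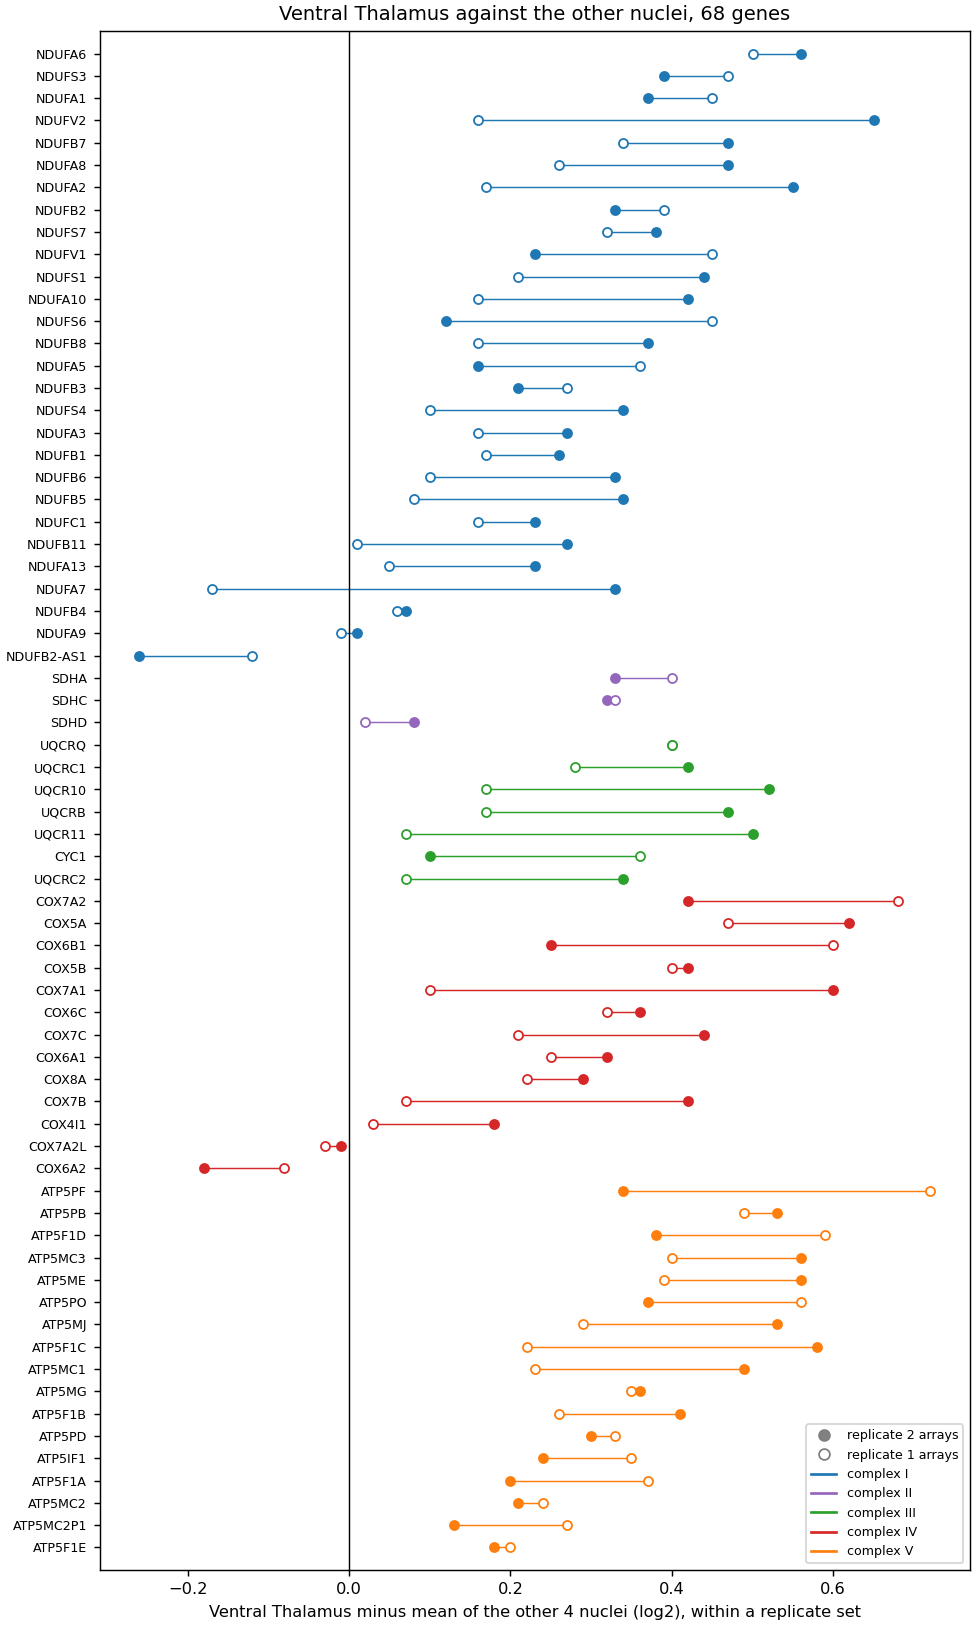
Difference between Ventral Thalamus and the mean of the other 4 nuclei within a replicate set (log2 intensity, horizontal axis) for each of the 68 genes, ordered within complexes I to V, with a filled point for replicate 2 and an open point for replicate 1. Nearly all points lie right of 0, in 65 genes for replicate 2 and 63 for replicate 1.

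In complex I, the NADH dehydrogenase, all 27 genes had a Ventral difference of 0.00 or more, with a mean of 0.27 ± 0.12 (SD over genes), and 13 had an unadjusted p under 0.05 in the blocked limma fit. The core subunits on the array carry the flavin and iron-sulphur centres or bind ubiquinone next to them, and they showed differences of similar size. NDUFV1 and NDUFV2, of the module that oxidises NADH, differed by 0.34 and 0.41, and NDUFS1 of the same module by 0.33. NDUFS3 and NDUFS7, of the module that passes electrons to ubiquinone, differed by 0.43 and 0.35. None of these 5 passed the adjusted test.

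The accessory subunit NDUFA6 had the largest difference in complex I. Its level was 10.20 and 9.35 in Ventral Thalamus (replicate 2 and replicate 1), against 9.70 and 8.88 in Anterior Thalamus, 9.51 and 9.0 in Centre Median, 9.51 and 8.60 in Medial Thalamus and 9.85 and 8.92 in Pulvinar. Ventral Thalamus was highest in each set, while its replicate 1 array lay below all replicate 2 arrays. The difference was 0.53, or 1.44-fold, with a standard error of 0.384 and adjusted p of 1 without the block, and of 0.114 and 0.0688 with it (limma). NDUFA1, an accessory subunit of the membrane arm, differed by 0.41 (adjusted p = 0.113 with the block, limma). The smallest value of complex I belonged to NDUFA9, an accessory subunit beside the ubiquinone site, whose mean was 8.04 both in Ventral Thalamus and over the other 4 nuclei (SD 0.06 in Ventral Thalamus, n = 2). NDUFB2-AS1, which is not a subunit, was dim and lower, at 5.25 and 5.66 in Ventral Thalamus against a mean of 5.65 in the others, a difference of -0.19 that did not pass the test. NDUFB2 itself differed by 0.36.

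Complex II, succinate dehydrogenase, was represented by 3 of its 4 subunits, since SDHB was not analysed here. SDHA, the flavoprotein that oxidises succinate, had 9.95 and 9.56 in Ventral Thalamus (replicate 2 and replicate 1), against 9.88 and 9.11 in Anterior Thalamus, 9.59 and 9.14 in Centre Median, 9.48 and 9.04 in Medial Thalamus and 9.54 and 9.35 in Pulvinar. Its replicate 2 value in Ventral Thalamus was only slightly above that of Anterior Thalamus, and the groups overlapped. SDHC, a membrane anchor, had 8.89 and 8.83 in Ventral Thalamus and 8.32 to 8.65 on the other 8 arrays, with no overlap. This probe set shifted by 0.06 between replicate numbers. Of the other SDHC probe sets of like intensity, the brighter shifted by 0.10 and the dimmer by 0.76, both with a Ventral difference of 0.22. A further SDHC probe set, with a mean of 5.69, shifted by 0.10, with a Ventral difference of 0.16. SDHD, the second anchor, differed by 0.05, with 8.11 and 7.80 in Ventral Thalamus and 7.72 to 8.10 elsewhere. The differences of SDHA and SDHC were 0.37 and 0.33, with blocked adjusted p-values of 0.226 and 0.200 (limma).

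In complex III, the cytochrome bc1 complex, all 7 genes lay above 0, between 0.21 and 0.40, and 5 had an unadjusted p under 0.05 in the blocked limma fit. UQCRQ, a small subunit near cytochrome b, had 8.53 and 8.18 in Ventral Thalamus (replicate 2 and replicate 1), against 8.06 and 7.92 in Anterior Thalamus, 8.15 and 7.81 in Centre Median, 8.03 and 7.59 in Medial Thalamus and 8.27 and 7.81 in Pulvinar. Ventral Thalamus was highest in both sets, by 0.40 over the mean of the others in each, with 1 overlap of its replicate 1 array with a replicate 2 array of Pulvinar. UQCRC1, a core protein on the matrix side, had 9.45 and 9.52 in Ventral Thalamus and 8.89 to 9.35 elsewhere, with no overlap. The partner core protein UQCRC2 showed the smallest difference of the complex, 0.21, with 0.34 in replicate 2 and 0.07 in replicate 1. CYC1, the cytochrome c1 that hands electrons to cytochrome c, differed by 0.23, and UQCR10 and UQCRB by 0.35 and 0.32. With the actin 3′ minus 5′ difference of each array as a covariate beside the block, these became 0.01, 0.45 and 0.50. Their standard errors were then 0.193, 0.22 and 0.257 (limma).

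Complex IV, cytochrome c oxidase, contained both of the largest differences and 2 of the 3 negative ones. Its mean difference was 0.28 ± 0.20 (SD over 13 genes), 11 of 13 genes lay above 0, and 8 had an unadjusted p under 0.05 in the blocked limma fit. COX5A, a subunit on the matrix side, had 10.93 and 10.52 in Ventral Thalamus (replicate 2 and replicate 1), against 10.47 and 9.86 in Anterior Thalamus, 10.28 and 10.15 in Centre Median, 10.18 and 10 in Medial Thalamus and 10.32 and 10.17 in Pulvinar. Both Ventral arrays exceeded the other 8. The difference was 0.55 (1.46-fold), with blocked adjusted p = 0.0873 (limma), or 0.62 with the actin covariate. COX7A2, the widely expressed isoform of subunit VIIa, had 10.48 and 9.73 in Ventral Thalamus, against 10.26 and 9.43 in Anterior Thalamus, 9.94 and 9.08 in Centre Median, 9.93 and 8.80 in Medial Thalamus and 10.13 and 8.88 in Pulvinar. Ventral Thalamus came first and Anterior Thalamus next in both sets, and the difference was also 0.55 (blocked adjusted p = 0.0781, limma), or 0.31 with the actin covariate.

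The isoforms of complex IV did not share 1 value. Of subunit VIa, COX6A1, the form of most tissues, differed by 0.28, while COX6A2, the form of heart and skeletal muscle, was dim and had 5.81 and 6.35 in Ventral Thalamus against 5.77 to 6.46 elsewhere, a difference of -0.13. Of subunit VIIa, the muscle form COX7A1 differed by 0.35, with 0.60 within replicate 2 and 0.10 within replicate 1. COX7A2L, a related protein that joins respiratory complexes into larger assemblies, differed by -0.02, with 7.97 and 7.61 in Ventral Thalamus and 7.49 to 8.08 elsewhere. COX4I1, a subunit that binds adenine nucleotides, had 10.16 and 9.97 in Ventral Thalamus, against 10.06 and 9.95 in Anterior Thalamus, 9.94 and 10.14 in Centre Median, 9.94 and 10 in Medial Thalamus and 9.98 and 9.68 in Pulvinar. Its arrays overlapped throughout, and the difference of 0.10 turned to -0.03 under quantile normalisation of the arrays.

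**Figure D2:**
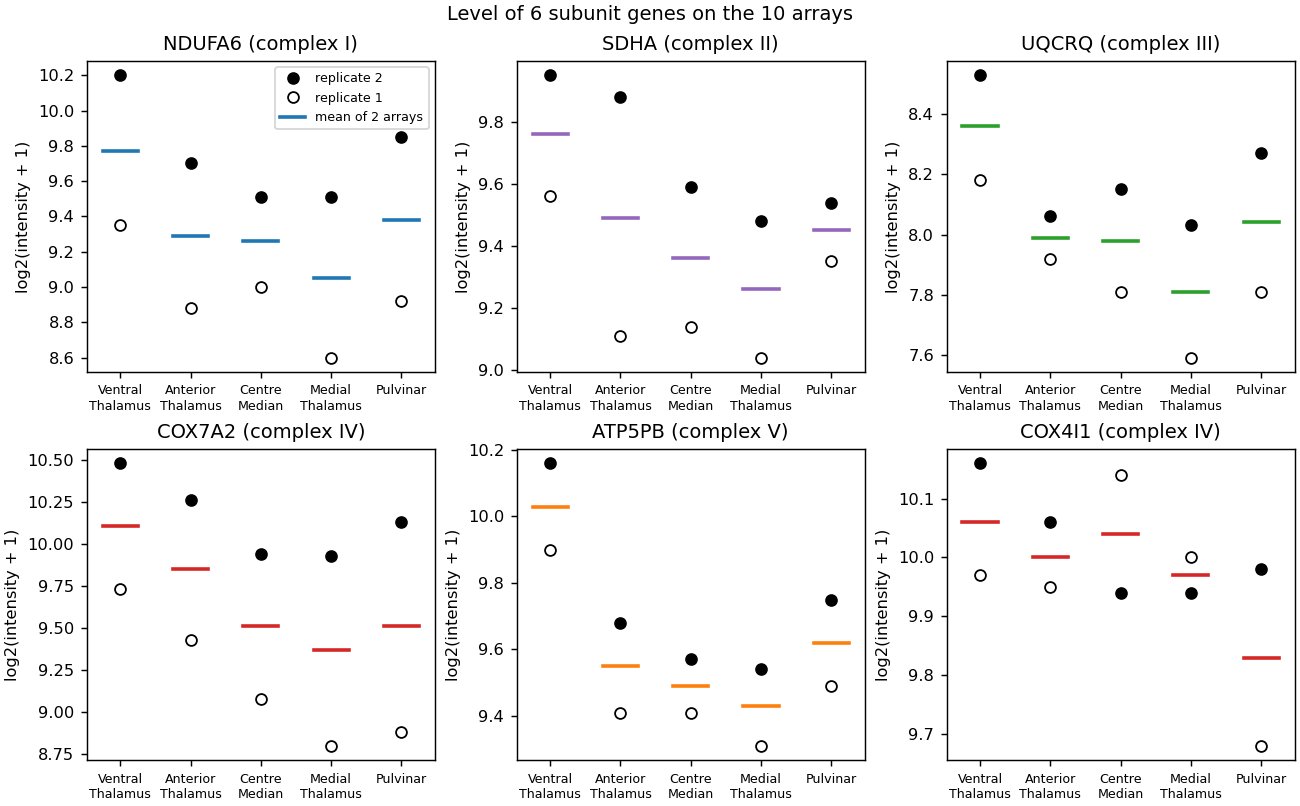
Level on each of the 10 arrays, as log2(intensity + 1) on a vertical axis that differs between panels, of NDUFA6, SDHA, UQCRQ, COX7A2, ATP5PB and COX4I1 in the 5 nuclei, with filled points for replicate 2, open points for replicate 1 and a line at the mean of both. Ventral Thalamus is highest within each set in the first 5 genes, and in COX4I1 the nuclei overlap, with Centre Median highest in replicate 1.

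Complex V had the highest mean difference of the 5 complexes, 0.38 ± 0.10 (SD over 16 genes), or 1.30-fold. All 16 genes lay above 0, between 0.19 and 0.53, and 12 had an unadjusted p under 0.05 in the blocked limma fit. Whether complex V differed from the other complexes was not tested, since the genes of a complex are not replicates. In the catalytic F1 head, the alpha and beta subunits ATP5F1A and ATP5F1B differed by 0.28 and 0.33, and the gamma, delta and epsilon subunits ATP5F1C, ATP5F1D and ATP5F1E by 0.40, 0.49 and 0.19. In the peripheral stalk that holds the head still, ATP5PB, ATP5PF, ATP5PO and ATP5PD differed by 0.51, 0.53, 0.46 and 0.32. With the actin 3′ minus 5′ difference of each array as a covariate beside the block, a measure of RNA quality, these became 0.51, 0.08, 0.36 and 0.07.

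ATP5PB, subunit b of the stalk, had the smallest p-values of the 68 genes for Ventral Thalamus against the rest. Its level was 10.16 and 9.90 in Ventral Thalamus (replicate 2 and replicate 1), against 9.68 and 9.41 in Anterior Thalamus, 9.57 and 9.41 in Centre Median, 9.54 and 9.31 in Medial Thalamus and 9.75 and 9.49 in Pulvinar. Both Ventral arrays lay above the other 8, and the difference was nearly equal in the 2 sets, at 0.53 and 0.49. The standard error was 0.165 without the block and 0.103 with it, and the adjusted p was 1 and 0.0513 (limma). ATP5PF, coupling factor 6, was less even, with a difference of 0.34 in replicate 2 and 0.72 in replicate 1.

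The 3 genes ATP5MC1, ATP5MC2 and ATP5MC3 encode the same mature subunit c, which forms the rotating ring. ATP5MC3 had 11.28 and 10.91 in Ventral Thalamus and 10.37 to 10.89 elsewhere, so its arrays did not overlap, and it differed by 0.48. ATP5MC1 and ATP5MC2 differed by 0.36 and 0.23, and the pseudogene ATP5MC2P1, whose probes may also bind ATP5MC2 transcripts, by 0.20. None of the 3 passed the adjusted test. ATP5IF1, which blocks reverse rotation of the enzyme, differed by 0.29.

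The complexes moved by similar amounts within each set of arrays. The mean Ventral difference was 0.33 in replicate 2 and 0.22 in replicate 1 for complex I, 0.24 and 0.25 for complex II, 0.39 and 0.22 for complex III, 0.32 and 0.25 for complex IV, and 0.39 and 0.37 for complex V. Complex V had the highest or joint highest value in both sets.

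**Figure D3:**
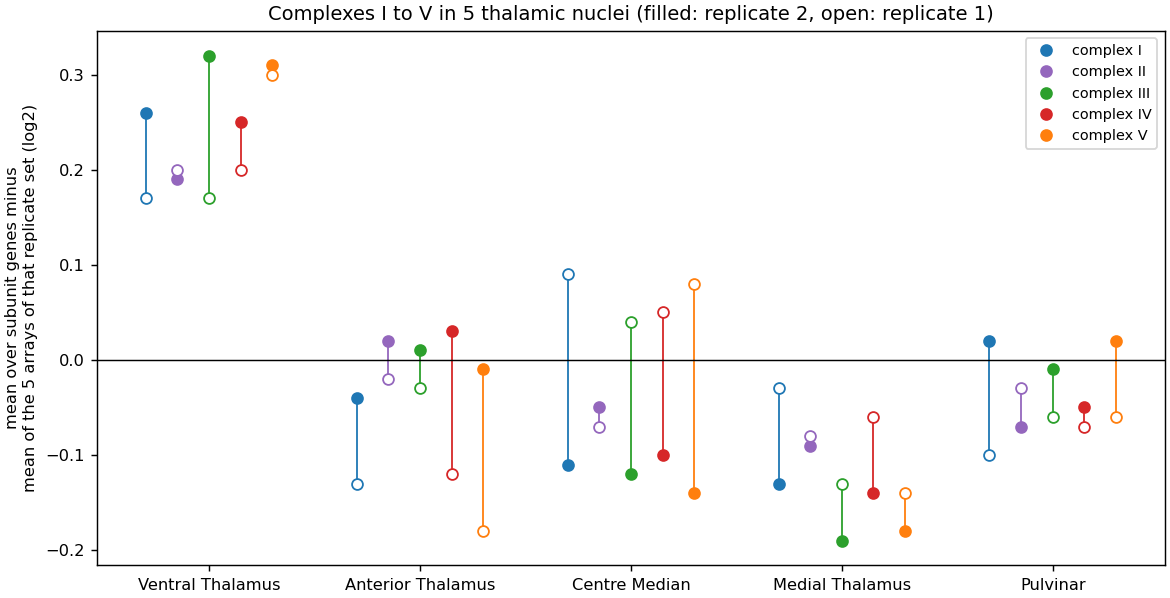
Mean over the genes of each complex on an array minus the mean of the 5 arrays of the same replicate number (log2 intensity, vertical axis), by nucleus, with filled points for replicate 2, open points for replicate 1 and colours for complexes I to V. Measured from the mean of all 5 nuclei, Ventral Thalamus lies between 0.17 and 0.32 in every complex, and the other nuclei lie between -0.19 and 0.09.

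The other 4 nuclei differed little among themselves. The median difference from the rest was -0.09 in Anterior Thalamus, -0.03 in Centre Median, -0.12 in Medial Thalamus and -0.04 in Pulvinar, and part of each negative value is the high mean of Ventral Thalamus against which it was set. None of the 68 genes was called in any of these 4 comparisons by limma, without or with the block. The calls among all genes were 0% in Anterior Thalamus and in Pulvinar in both fits, 0.0251% without and 0.176% with the block in Centre Median, and 0% without and 0.159% with it in Medial Thalamus. At an unadjusted p under 0.05 the blocked fit gave 3 genes in Anterior Thalamus, 0 in Centre Median, 12 in Medial Thalamus and 0 in Pulvinar, all lower. Over all genes the shares that were lower at that level were 2.9% in Anterior Thalamus, 2.74% in Centre Median, 6.27% in Medial Thalamus and 1.48% in Pulvinar. Without the block none of these 4 comparisons had a member at an unadjusted p under 0.05 (limma). Few genes of any kind reached that level without the block. Of all 11963 genes they numbered 36 in Anterior Thalamus, 119 in Centre Median, 146 in Medial Thalamus and 34 in Pulvinar, in either direction.

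Medial Thalamus was the lowest nucleus in both sets in 11 of the 68 genes, against 5.52% of all genes. Anterior Thalamus was lowest in both sets in 1 gene (3.12% of all genes), and Centre Median and Pulvinar in 0 (4.13% and 2.85% of all genes). UQCRC2 was the clearest case, with 8.47 and 7.41 in Medial Thalamus (replicate 2 and replicate 1) against 9.0 and 7.94 in Centre Median, 8.90 and 7.85 in Pulvinar, 8.84 and 7.73 in Anterior Thalamus and 9.15 and 7.80 in Ventral Thalamus. Within each set its Medial array was the lowest, but the shift between sets was larger than any difference between nuclei. The difference from the rest was -0.46, with blocked adjusted p = 0.100 (limma). Centre Median changed sides between the sets, with a median of -0.18 in replicate 2 and 0.08 in replicate 1.

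Of the 10 pairs of nuclei, only Ventral Thalamus against Medial Thalamus held called genes, and only in the fit with the block. Of 680 tests of a gene in a pair, 0 were called by limma without the block, against 0.00418% over all genes, and 3 with it, against 0.176%. All 3 were higher in Ventral Thalamus than in Medial Thalamus: NDUFA6 rose by 0.72 (1.65-fold, standard error 0.144, adjusted p = 0.0355), COX7A2 by 0.74 (1.67-fold, 0.155, 0.0446) and ATP5PB by 0.61 (1.52-fold, 0.130, 0.0489), with limma and Benjamini-Hochberg adjustment over all genes. That is 3 of 68 genes, against 1.08% of all genes in this pair, and without the block the adjusted p of each was 1. No blocked fit that left out 1 array kept all 3: these gave 0 to 2 calls, and 0 without either array of Ventral Thalamus or of Anterior Thalamus or without Medial Thalamus replicate 1. The 3 calls were also lost under quantile normalisation with the block, with the mean over a gene's probe sets in place of the brightest, and when the actin 3′ minus 5′ difference of each array was added to the block. Ventral Thalamus exceeded Anterior Thalamus in 64 of 68 genes (median 0.32), Centre Median in 64 (0.27), Medial Thalamus in 65 (0.35) and Pulvinar in 65 (0.30), in comparisons that share the Ventral arrays. At an unadjusted p under 0.05 the blocked fit had 31, 25, 36 and 22 of the 68 genes higher in these 4 pairs, against 6.53%, 5.46%, 9.22% and 3.75% of all genes. Among the pairs without Ventral Thalamus, the medians lay between -0.07 and 0.08.

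The moderated F test, which asks whether the 5 nuclei differ in any way, called 0 of 68 genes without the block, against 0% of all genes, and 0 with it, against 0.393% of all genes. With the block, 19 genes had an unadjusted p under 0.05, against 9.68% of all genes, and the smallest adjusted p was 0.152, for COX7A2 (limma). Without the block no gene of the set had an unadjusted p under 0.05 in this F test, against 86 of all 11963 genes.

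The difference between replicate numbers was wider than that between nuclei. Replicate 2 was higher than replicate 1 in 62 of 68 genes, with a median difference of 0.44, against -0.05 over all genes. With the nucleus as a covariate, limma called 47 of the 68 genes higher and 2 lower in replicate 2, against 25.4% of all genes higher and 31.1% lower. By complex, 20 of 27 genes of complex I were called higher, 2 of 3 of complex II, 5 of 7 of complex III, 9 of 13 of complex IV and 10 of 16 of complex V.

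NDUFA5, an accessory subunit of complex I, differed most between the sets. It had 7.30, 7.01, 6.99, 7.43 and 7.14 on the replicate 2 arrays of Ventral Thalamus, Anterior Thalamus, Centre Median, Medial Thalamus and Pulvinar, against 5.79, 5.25, 5.60, 5.46 and 5.42 on the replicate 1 arrays in the same order. The sets did not overlap, and the difference was 1.67 (3.18-fold, standard error 0.0902, adjusted p = 1.24e-07, limma). NDUFB7 and ATP5PF followed, with differences of 1.16 and 1.15. The 2 genes called lower in replicate 2 were COX6A2, by -0.46, and NDUFB2-AS1, by -0.30, both dim. UQCRC1 differed by -0.19 and was not called (adjusted p = 0.123, limma). Under quantile normalisation the median over the 68 genes was 0.18, 49 of 68 lay above 0, and 33 were called higher and 6 lower, against 23.2% of all genes higher and 30.7% lower. The lowest intensity on the array was 9.49 to 9.55 in replicate 2 and 12.0 to 12.3 in replicate 1, and the part of processing, RNA and animals in the shift cannot be told apart.

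**Figure D4:**
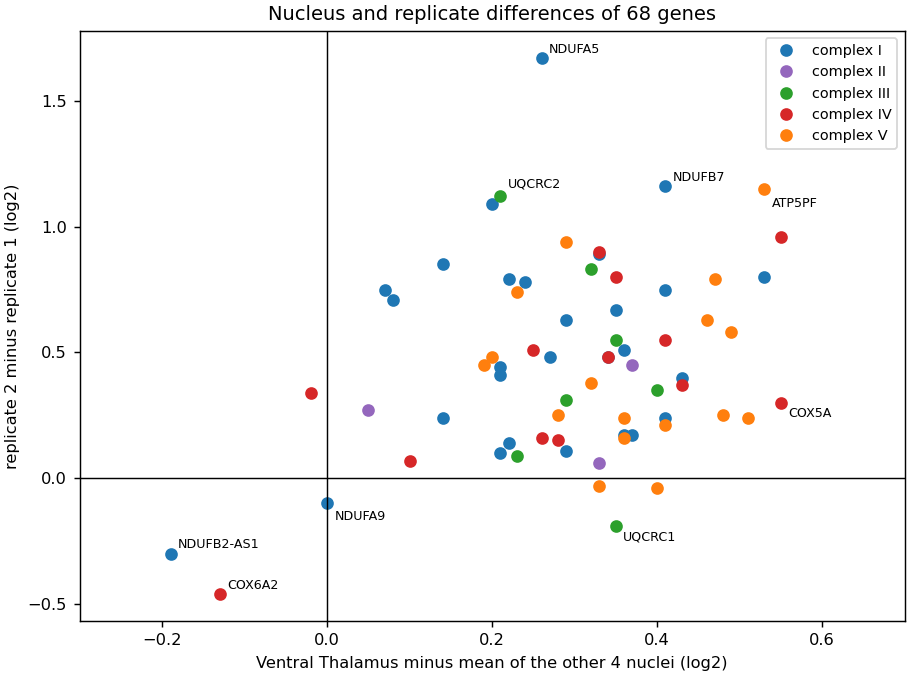
Difference between Ventral Thalamus and the mean of the other 4 nuclei (log2 intensity, horizontal axis) set against the difference between replicate 2 and replicate 1 (log2 intensity, vertical axis), 1 point per gene, coloured by complex, with some genes labelled and lines at 0. Most of the 68 genes lie above 0 on both axes, and NDUFA5, at 1.67 between the sets and 0.26 between nuclei, stands highest.

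Most probe sets that were not used for the values above gave smaller differences. Among the 68 genes, 21 had further probe sets, 33 in all, and the difference between Ventral Thalamus and the rest had the same sign as the probe set in use in 26 and the opposite sign in 7. The difference was smaller than that of the probe set in use in 28 and larger in 4, which belonged to UQCRB (0.41 against 0.32), COX5B (0.43 against 0.41), ATP5MG (0.39 against 0.36) and COX4I1 (0.14 against 0.10). The median over the 33 was 0.16, and 11 had a mean below 7. The 7 of opposite sign had means between 4.24 and 7.33, a range that also held probe sets of the same sign. The second probe set of NDUFA6, one of the 3 genes called against Medial Thalamus, differed by -0.16. Its mean was 6.87, against 9.35 for the probe set in use.

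Bright genes of any function also lay more often above 0 than all genes did. The 1031 genes with a mean of at least 9 had a median Ventral difference of 0.14, and 76.0% of them lay above 0. The 31 respiratory chain and ATP synthase genes at that level had a median of 0.35, and 31 of 31 lay above 0. At a mean of at least 10, the medians were 0.32 for 14 of these genes and 0.15 for 343 genes in all. Quantile normalisation of the 10 arrays lowered the median of the 68 genes to 0.23, with 63 of 68 above 0.

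Genes of connected pathways were read from lists chosen with earlier results of these data known. The carriers around the chain had the highest median of the pathway lists, at 0.39, and 12 of 13 genes lay above 0. They include cytochrome c, CYCS, at 0.40, and the ADP/ATP exchangers SLC25A4 and SLC25A5 at 0.40 and 0.41. In the tricarboxylic acid cycle, which supplies NADH and succinate, 16 of 17 genes lay above 0 (median 0.28), and in glycolysis 15 of 17 (0.18). No gene of these 3 lists was called by limma without or with the block, against 0% and 0.527% of all genes. In the blocked fit 8 of the 13 carriers, 9 of 17 genes of the cycle and 6 of 17 of glycolysis were higher at an unadjusted p under 0.05, against 8.22% of all genes.

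Genes that build the complexes had values closer to 0. The assembly factors, which insert cofactors and join subunits but are not part of the finished enzymes, had 12 of 24 genes above 0 and a median of 0.00. Mitochondrial ribosomal proteins, which translate the subunits encoded in mitochondrial DNA, had a median of 0.10 over 51 genes, and cytosolic ribosomal proteins a median of 0.11 over 53. None of these was called in either fit. The regulators of mitochondrial biogenesis had a median of 0.08 over 8 genes and held 2 called genes with the block and 0 without it, against 0.527% and 0% of all genes.

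PPARGC1A, a coactivator of mitochondrial genes, had 8.54 and 6.78 in Ventral Thalamus (replicate 2 and replicate 1), against 5.56 to 7.57 on the other 8 arrays. The Ventral replicate 2 array was the highest of all, and the replicate 1 array lay within the range of the others. It rose by 0.93 in the blocked limma fit (adjusted p = 0.0210), and its partner ESRRG, an orphan nuclear receptor that drives oxidative genes, by 0.58 (adjusted p = 0.0374). Both had an adjusted p of 1 without the block. ESRRA, a related receptor, had a difference of 0.38 (blocked adjusted p = 0.142, limma), while TFAM, which maintains and transcribes mitochondrial DNA, differed by -0.07 and NRF1, a transcription factor of respiratory genes, by 0.14.

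**Figure D5:**
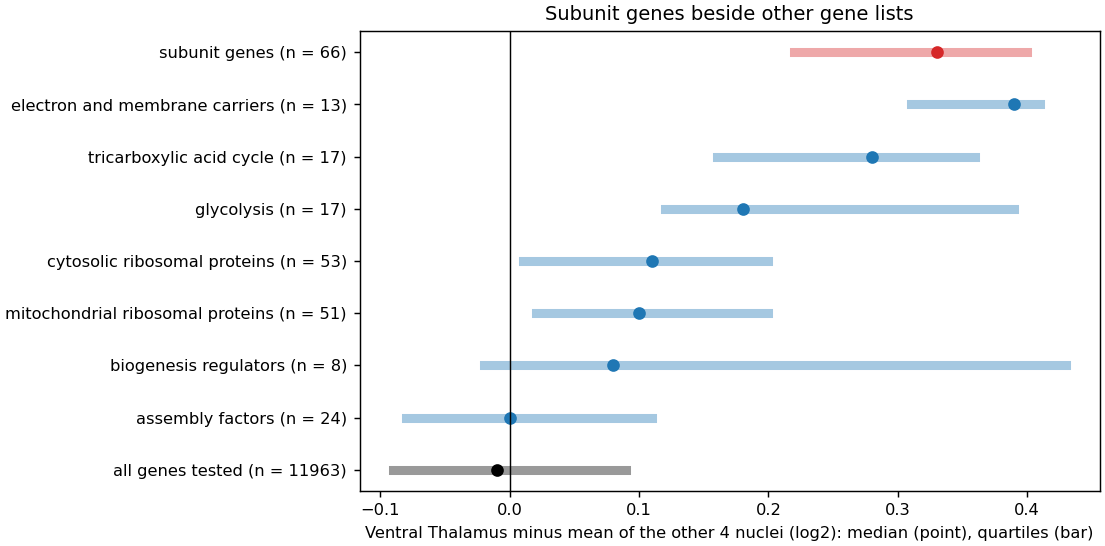
Median (point) and quartiles (bar) of the difference between Ventral Thalamus and the mean of the other 4 nuclei (log2 intensity, horizontal axis) over the subunit genes, the genes of each pathway list and all genes tested. The subunit genes have a median of 0.33, near the carriers at 0.39, while the assembly factors centre on 0.00 and all genes on -0.01. The lists were not matched for intensity.

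Markers of cell types also differed between Ventral Thalamus and the rest. All 8 neuronal markers measured lay at or above 0, with a median of 0.54, and their summed intensity was 40742 and 28780 in Ventral Thalamus (replicate 2 and replicate 1), against 19864 to 25253 in the other replicate 2 arrays and 19404 to 25102 in the other replicate 1 arrays. The neurofilament genes NEFL, NEFM and NEFH, which form the cytoskeleton of large axons, rose by 1.06, 1.68 and 1.75 in the blocked limma fit (adjusted p = 0.0241, 0.00490 and 0.00820). The other neuronal markers had smaller differences and were not called. These were SNAP25 at 0.32, SYT1 at 0.00, STMN2 at 0.42, SLC17A6 at 0.53 and ENO2, which is also in the glycolysis list, at 0.54. All 9 myelin and oligodendrocyte markers measured lay above 0 (median 0.44), with sums of 19232 and 16009 in Ventral Thalamus, against 11445 to 15802 and 8103 to 12853 elsewhere. Of these 9, MAG and CNP were called in the blocked limma fit, with differences of 0.86 and 0.87 (adjusted p = 0.0112 and 0.021). The list for GABA neurons held GAD1, GAD2 and PVALB, which differed by 0.49, 0.40 and 1.42 (median 0.49) and were not called. The sums of this list, 5851 and 2752 in Ventral Thalamus against 1796 to 2886 and 1078 to 3924 elsewhere, overlapped in replicate 1. These sums include PVALB, the largest difference of the 3, and were not read as an amount of GABA neurons. GAD1 had 10.61 and 9.98 in Ventral Thalamus against 8.54 to 10.27 elsewhere. GAD2 had 9.52 and 9.40 against 8.74 to 9.64, so both overlapped. Astrocyte markers went both ways, with 3 of 7 above 0 and a median of -0.09. GFAP fell by 1.11 (blocked adjusted p = 0.0378, limma), while S100B, SLC1A2 and ALDH1L1 had differences of 0.26, 0.20 and 0.14 that did not pass the test. Microglial, vessel and choroid plexus markers had medians of 0.01, 0.16 and -0.15. Without the block no marker of any list was called in this comparison, nor was any other gene (limma). The part of cell composition in the values of the respiratory chain genes was not tested.

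RNA quality differed along with the nucleus. The 3′ minus 5′ difference of the actin control probe sets, which is larger in RNA that is degraded or copied incompletely, was 1.64 and 1.22 in Ventral Thalamus (replicate 2 and replicate 1), against 1.15 to 1.36 and -0.09 to 0.46 elsewhere. Ventral Thalamus was thus highest in both sets. With this difference as a covariate beside the block, 63 of 68 genes lay above 0, with a median of 0.36 and a range of -0.47 to 0.70, 0 of 68 were called, and the median standard error was 0.221, against 0.120 with the block alone. XIST exceeded the Y-linked RPS4Y1 on all 5 replicate 2 arrays and on the replicate 1 arrays of Centre Median and Pulvinar, and lay below it on the replicate 1 arrays of Ventral Thalamus, Anterior Thalamus and Medial Thalamus. With replicate 1 split into these sets in the block, the median of the 68 genes was 0.36, 64 lay above 0, and the calls against Medial Thalamus numbered 3.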

How the data were processed

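The deposited values are normalized intensities on a linear scale that the authors made with RMA (no version named), per the submitters' processing notes. Whether all 10 arrays were processed together is not given in the sources used here. Of 22283 probe sets, 68 were controls and 20114 were annotated; those with several genes (1043) and 6 annotated controls were left out, and the remaining 19065 with 1 symbol gave 11963 genes, each by the probe set with the highest mean. Values were taken as log2(value + 1). No genome build was given, so genes are named by symbol.

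Linear models were fitted to all genes and all 10 arrays with limma 3.58.1 in R 4.3.3 (variance trend, Benjamini-Hochberg adjustment over all genes in a comparison, call at adjusted p under 0.05), after being tested on simulated data. The simulated data held the replicate shift and differences planted in Ventral Thalamus. Of planted differences of size 1, the fit without the block called 33% and the blocked fit 97%. Of planted differences of a smaller size, the fits called 2% and 54%. False calls numbered 0 and 8. Residual degrees of freedom were 5 without and 4 with the replicate block. Arrays of the same replicate number deviated together from their nucleus means (correlation over all genes 0.758 to 0.831), so the numbers were treated as pairing the arrays. Figures used Python 3.11.15, numpy 2.4.6 and matplotlib 3.10.9. The precision is limited by the number of arrays.

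The genes and lists were chosen with earlier results of these data known. Named genes were, per complex, the 3 largest and the smallest Ventral differences, all negative or called genes, those with the smallest F-test p-values, the SDH genes, paralogs, and the extremes between replicate numbers. Other genes were named for their role or after their values were seen. The cytosolic ribosomal list was limited, after a first look, to symbols of ribosomal proteins proper. Alternatives were quantile normalisation, the mean over probe sets, a filter at mean log2 of 7, no pseudocount, no variance trend, the block, covariates, leaving out each array, and analysis within each replicate number. Replicates are numbered as on the labels.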

Additional observations from a re-analysis of the deposited data

How the results depend on the processing

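Without any block, the median Ventral difference of the 68 genes lay between 0.06 and 0.59 when 1 array was left out, lowest without Ventral Thalamus replicate 2; with the replicate block it lay between 0.25 and 0.36. Leaving out 1 array gave, without and with the block, ranges of -0.06 to 0.60 and 0.22 to 0.33 for complex I, 0.12 to 0.37 and 0.24 to 0.25 for complex II, 0.02 to 0.60 and 0.22 to 0.39 for complex III, 0.06 to 0.51 and 0.25 to 0.32 for complex IV, and 0.16 to 0.61 and 0.35 to 0.42 for complex V. The medians of the other nuclei ranged from -0.36 to 0.18 and -0.15 to -0.02 in Anterior Thalamus, -0.17 to 0.11 and -0.18 to 0.08 in Centre Median, -0.33 to 0.05 and -0.21 to -0.08 in Medial Thalamus, and -0.31 to 0.19 and -0.08 to 0.00 in Pulvinar. Genes called in Ventral Thalamus against the rest numbered 0 without the block and 0 to 1 with it, the 1 being ATP5PF (0.60, adjusted p = 0.0395, limma) without Medial Thalamus replicate 2. Pair calls with the block, 3 with all arrays, numbered 0 to 2. Genes called between replicate numbers were 43 to 50 (median 0.40 to 0.49). The pair calls also numbered 3 with the XIST and RPS4Y1 split, and 6 with the filter on mean log2 of at least 7 and the block, which also called 1 gene in Ventral Thalamus, ATP5PB (adjusted p = 0.0404, limma); this setting was added after seeing the data. Quantile normalisation, with or without the block, gave complex means of 0.20 (I), 0.17 (II), 0.23 (III), 0.20 (IV) and 0.26 (V), and a median of 0.18 between replicate numbers. Complex III gave 0.38 with the actin covariate, 0.39 within replicate 2 and 0.22 within replicate 1. Among named genes the sign turned for COX4I1 (-0.03 with quantile normalisation, both fits), NDUFA5 (-0.10 with the actin covariate) and COX7A2L (0.03 with the XIST and RPS4Y1 split). Without the block, leaving out 1 array also turned the sign, in each case without Ventral Thalamus replicate 2, for ATP5F1E (-0.03 to 0.41), ATP5MC2 (-0.13 to 0.58), COX6A2 (-0.40 to 0.14), COX7A1 (-0.25 to 0.95), NDUFA5 (-0.50 to 1.01), NDUFB2-AS1 (-0.40 to 0.02), NDUFB7 (-0.22 to 1.04), SDHD (-0.11 to 0.20, and 0.00 without Medial Thalamus replicate 1), UQCR10 (-0.07 to 0.76) and UQCRC2 (-0.46 to 0.88). COX7A2L, near 0, turned in 5 such fits without the block (-0.20 to 0.16) and in 2 with it (-0.06 to 0.02), at 0.01 without Pulvinar replicate 1. In the blocked fits that left out 1 array, no named gene other than COX7A2L turned its sign. Without the block, a fit lacking Ventral Thalamus replicate 2 sets its replicate 1 array against both sets of the other nuclei. Such a difference also holds the shift between replicate numbers. Why COX7A2L turned with the block was not tested. Of 889 values for the 29 named genes, 865 kept their direction and side of the threshold. No named gene was called in the main fit, so its side could change only by a new call. Of 567 values for the 19 summary results, 514 stayed close to the main value. Medians and means were judged by the spread between replicate sets pooled over nuclei or complexes, a pooling chosen after seeing the data. Several other summary results were counts of called genes that were 0 in the main fit, and 0 again was taken as unchanged. Both shares were thus partly fixed in advance. The alternative assignment of NDUFA4 was not run, since that gene was not analysed here. The files give no measure of signal over background, so how far dim probe sets such as COX6A2 follow their transcripts is unknown.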

Other observations

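Of the 6 probe sets that the annotation assigns to a respiratory chain or ATP synthase gene together with another gene, all 6 had a positive difference between Ventral Thalamus and the other 4 nuclei. The probe set shared by UQCRH, the hinge protein of complex III, and its retrocopy UQCRHL had 10.58 and 9.57 in Ventral Thalamus (replicate 2 and replicate 1), against 8.73 to 10.16 elsewhere, a difference of 0.49. The probe set of ATP5MF, a membrane subunit of ATP synthase, and ARMC2-AS1 differed by 0.36. The probe set of NDUFC2, an accessory subunit of complex I, and its readthrough with KCTD14 differed by 0.34. The 2 probe sets of NDUFS8, an iron-sulphur subunit of complex I that shares its locus with microRNA genes, differed by 0.36 and, in the dimmer one, by 0.12. The probe set of NDUFS5 and RPL10 differed by 0.08. These 6 were left out of the 68 genes because their signal cannot be given to 1 symbol, and they were not tested.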
